A study of Homo sapiens with 8 samples.

Results

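A set of 10 genes whose products are stored in the granules of neutrophils and monocytes, or are secreted by these cells, was followed through ChIRP RNA libraries of human acute myeloid leukaemia (AML) cells edited at the long non-coding RNA HOTSCRAMBL. They are MPO, ELANE, AZU1, PRTN3, CTSG, LYZ, CFD, SRGN, CHI3L1 and RNASE2, chosen by name and found by matching Ensembl gene identifiers to symbols. These are 10 of the 63140 genes in the count table, and all 10 passed the filter on low counts that left 24057 genes for testing. MOLM13 and OCI-AML4, both AML cell lines grown in culture, had been nucleofected and were collected on day 3 after editing. Each of 4 groups held 2 libraries, replicate 1 labelled MOLM13 and replicate 2 labelled OCI-AML4. HOTSCRAMBL KO cells (genotype HOTSCRAMBL KO) received Cas9 ribonucleoprotein with guide RNA, and HOTSCRAMBL CBE cells (genotype HOTSCRAMBL CBE) received a cytosine base editor with guide RNA. Their controls, AAVS1 KO and AAVS1 CBE, carried the genotype label WT and received the same kind of editor aimed at AAVS1, the safe-harbour site that serves as an editing control. The labels give neither the editing efficiency nor whether the cells were clones. In ChIRP, cells are fixed and sonicated and biotinylated probes pull down an RNA with whatever is crosslinked to it. The target of the probes is not named in the labels and no input libraries were analysed here, so each value below is an amount of recovered RNA, in which binding to the probe target and expression cannot be told apart. In such bulk samples fewer cells of a type and less RNA per cell cannot be told apart either.

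Neutrophil granules are filled in order as the cell matures. The primary (azurophil) granules of promyelocytes take up myeloperoxidase and a family of serine proteases, and later granules take up lactoferrin, gelatinase and other proteins. Monocytes share part of the primary granule programme and secrete lysozyme throughout. PU.1 (SPI1), the C/EBP factors and RUNX1 are known regulators of these genes. In many but not all cases of AML the cells are arrested at stages at which the primary granule genes are active.

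Of the members, 4 lie side by side on chromosome 19 in a cluster of serine protease genes (GRCh38, all on the plus strand): AZU1 at chr19:825097-832018, PRTN3 at chr19:840999-848175, ELANE at chr19:851014-856247 and CFD at chr19:859453-867884. On chromosome 14 lie RNASE2 (chr14:20955487-20956436, plus strand) and CTSG (chr14:24573518-24576250, minus strand). The others are MPO at chr17:58269855-58280935 (minus strand), LYZ at chr12:69348381-69354234 (plus strand), SRGN at chr10:69088103-69104805 (plus strand) and CHI3L1 at chr1:203178931-203186704 (minus strand). CFD overlaps MED16 on the opposite strand, LYZ overlaps an unnamed antisense gene (ENSG00000257764, chr12:69353493-69354225) at its end, and SRGN overlaps a short non-coding gene on its own strand. The counting did not use strand and left out reads that fell on more than 1 gene, so overlapped stretches add nothing to either gene. RNASE2 has a close paralog, RNASE3, and reads that match both were not counted, so its level is uncertain.

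The 250 bases before the RefSeq transcription start (GRCh38.p14) were searched for a PU.1-type core (GAGGAA), a C/EBP-type pattern (TTNNGNAA) and a RUNX-type core (TGTGGT) on both strands, in the 6 members whose promoter the RefSeq table held. These windows are shown for 4 members, because AZU1 and its neighbour PRTN3 changed in opposite directions with KO, and CTSG and CHI3L1 did so with CBE. Capitals mark the matches, none of which overlap each other.
AZU1: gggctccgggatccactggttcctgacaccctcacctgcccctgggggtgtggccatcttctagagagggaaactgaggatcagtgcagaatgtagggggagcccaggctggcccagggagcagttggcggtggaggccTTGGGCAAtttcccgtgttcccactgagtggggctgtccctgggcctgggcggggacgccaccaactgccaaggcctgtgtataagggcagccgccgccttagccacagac
PRTN3: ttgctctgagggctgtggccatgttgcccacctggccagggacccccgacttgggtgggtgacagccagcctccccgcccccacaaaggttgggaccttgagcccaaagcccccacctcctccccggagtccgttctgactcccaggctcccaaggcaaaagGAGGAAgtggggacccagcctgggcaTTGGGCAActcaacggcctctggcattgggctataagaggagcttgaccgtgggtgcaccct
CTSG: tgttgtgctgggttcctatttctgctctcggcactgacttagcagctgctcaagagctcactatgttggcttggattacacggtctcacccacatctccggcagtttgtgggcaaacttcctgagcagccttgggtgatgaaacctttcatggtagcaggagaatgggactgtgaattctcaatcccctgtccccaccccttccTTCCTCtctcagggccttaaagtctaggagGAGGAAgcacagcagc
CHI3L1: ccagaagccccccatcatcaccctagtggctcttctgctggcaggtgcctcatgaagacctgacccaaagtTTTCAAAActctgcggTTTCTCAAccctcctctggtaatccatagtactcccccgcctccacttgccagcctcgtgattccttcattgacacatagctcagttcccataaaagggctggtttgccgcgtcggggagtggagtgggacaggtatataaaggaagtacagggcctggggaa
The AZU1 window (chr19:827587-827836, plus strand) held 1 C/EBP-type match, and that of PRTN3 (chr19:840749-840998, plus strand) held 1 PU.1-type and 1 C/EBP-type match. The AZU1 window lies inside the AZU1 span given above (chr19:825097-832018), so its RefSeq start differs from the start of the gene as counted. That of CFD (chr19:859414-859663) runs over the counted start of CFD at chr19:859453. In the CTSG window (chr14:24576251-24576500, minus strand) there were 2 PU.1-type matches, the one nearer the start reading on the gene's own strand. CHI3L1 (chr1:203186705-203186954, minus strand) had 2 C/EBP-type matches, both on the other strand. RNASE2 had 1 C/EBP-type match and CFD had none of the 3 patterns, and no window of the 6 held the RUNX-type core. Of 35116 RefSeq promoter windows of the same length, 23.6% held GAGGAA, 33.2% held TTNNGNAA and 11% held TGTGGT, so such matches are common and mark no site.

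Total counts ran from 20548300 to 37970163 per library, and the 10 members took 0.312% to 0.461% of them. The share of counts from mitochondrial genes was 6.77% to 7.23% in the AAVS1 libraries and 10.2% to 11.9% in the HOTSCRAMBL libraries, without overlap, so it moved with both editing comparisons below and its part in them was not tested. No gene of the table is named HOTSCRAMBL, so the edited gene itself was not analysed here. Between the line labels, MOLM13 and OCI-AML4, 119 genes differed, 0.495% of those tested, which is fewer than separate lines usually show, and the labels are used here as given. Of 10 AML markers, 9 were tested, summing to 882 to 1010 CPM (read counts normalised to library size, TMM scaled) per library, while CD34 and KIT were at or near 0. Summed over 8 genes, erythroid markers reached at most 3.04 CPM. Among the AML markers, CSF1R was called higher with KO (log2 fold change 0.69, adjusted p = 0.0227, edgeR), and CD4 (0.93, adjusted p = 6.57e-04) and PTPRC (0.67, adjusted p = 0.00647) higher with CBE. Others went down without passing: ITGAM had -0.84 with KO and -0.91 with CBE, and CD33 -0.32 and -0.33. FLT3 had -0.32 with KO and 0.17 with CBE, and CSF1R -0.53 with CBE. The median of the 9 was -0.02 with KO and 0.07 with CBE. The KO minus CBE difference passed for CSF1R (1.22, adjusted p = 0.0093, edgeR) and CD4 (-0.96, adjusted p = 0.0451). Markers of T and NK cells, most of it NKG7, summed to 13.5 to 22.1 CPM in AAVS1 KO and 30.1 to 31.5 CPM in HOTSCRAMBL KO, and to 15.5 to 17.98 CPM in AAVS1 CBE and 18.7 to 26.9 CPM in HOTSCRAMBL CBE. Epithelial and fibroblast markers summed to 4.56 to 6.00 CPM in AAVS1 KO and 0.223 to 0.306 CPM in HOTSCRAMBL KO, and to 2.60 to 4.93 CPM in the CBE libraries. Those of B cells summed to 6.35 to 11.4 CPM over the 8 libraries, and the part of these markers in the results below was not tested.

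Divided by the annotated exon length, PRTN3 stood highest and MPO lowest in every group. In AAVS1 KO, PRTN3 (proteinase 3) had 1065 ± 226 CPM per kb (SD, n = 2), AZU1 (azurocidin, a protease homologue without catalytic activity) 555 ± 14.2 and ELANE (neutrophil elastase) 252 ± 79.1. SRGN followed at 127 ± 11.02 CPM per kb, CHI3L1 at 112.3 ± 10.1, LYZ at 75.7 ± 8.62 and CFD at 70.5 ± 14.5, and only LYZ and CFD overlapped as neighbours in the order. CTSG (24.9 ± 1.38 CPM per kb), RNASE2 (14.6 ± 2.11) and MPO (11.4 ± 1.15) closed it. Per length, PRTN3 ranked between 26 and 38 among the tested genes across the 8 libraries, AZU1 between 42 and 104, and MPO between 3498 and 6796.

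The AAVS1 CBE libraries gave the same order, again with LYZ and CFD overlapping, and with CTSG (21.2 ± 0.407 CPM per kb) overlapping RNASE2 (20.5 ± 1.47). In HOTSCRAMBL KO the order after PRTN3 (1454 ± 187 CPM per kb) was LYZ (350 ± 80.4), SRGN (308 ± 58.5), CHI3L1 (307 ± 1.24) and AZU1 (301 ± 8.76), and each of the first 3 overlapped the next. ELANE (168 ± 22.6), CFD (89.3 ± 22.6), RNASE2 (44.9 ± 11.6), CTSG (35.5 ± 2.13) and MPO (6.77 ± 0.693) followed, RNASE2 and CTSG overlapping. In HOTSCRAMBL CBE, PRTN3 (1233 ± 222 CPM per kb) and AZU1 (478 ± 50.3) came before SRGN (356 ± 5.32) and ELANE (291 ± 28.1). LYZ (87.0 ± 1.85), CFD (85.0 ± 15.2) and CTSG (75.3 ± 0.784) overlapped one another in sequence there, above CHI3L1 (66.9 ± 1.95), RNASE2 (50.5 ± 10.7) and MPO (6.49 ± 0.664).

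**Figure D1:**
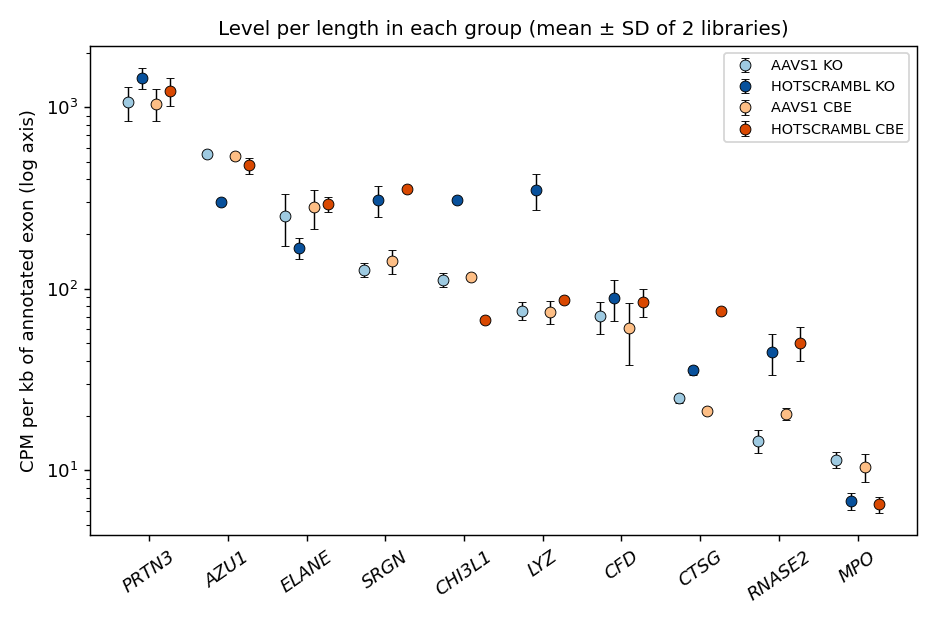
Level of each member per length (CPM per kb of annotated exon, log axis) in the 4 groups; points are means and bars the SD of 2 libraries. PRTN3 was highest and MPO lowest in each group, while LYZ rose from 75.7 in AAVS1 KO to 350 CPM per kb in HOTSCRAMBL KO.

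All members but MPO passed the test with at least 1 editor, some higher and some lower. Differences were tested with edgeR's quasi-likelihood test with the line label as a block, and p-values were adjusted by Benjamini-Hochberg over all 24057 genes at a threshold of 0.05. They rest on the spread left between libraries after group and line label, pooled over the 4 groups and moderated by the spread of all genes. Each group holds 1 library per line label, so no label is replicated within a group. With KO, 5 of the 10 members rose (LYZ, RNASE2, CHI3L1, SRGN, PRTN3) and 2 fell (AZU1, ELANE), where 8.76% of all tested genes were called, 4.51% higher and 4.25% lower. With CBE, 4 rose (CTSG, SRGN, RNASE2, CFD) and 1 fell (CHI3L1), where 8.83% of all tested genes were called, 4.56% higher and 4.27% lower. All 10 members had a mean of at least 20 CPM, and genes at that level were called more often than all tested genes. These 7173 genes were split into 4 equal bins of GC content (the share of G and C). With KO, 8.76% to 13.2% of a bin were called higher and 5.18% to 21.7% lower. With CBE the shares were 8.59% to 16.7% and 2.79% to 25.6%. The members' median log2 fold change was 0.49 with KO and 0.24 with CBE, beside -0.01 and -0.02 over all tested genes. All 10 members moved the same way under both line labels with KO, as did 58.1% of all tested genes, and 9 of 10 did so with CBE, as did 60.2% of all tested genes. The exception was ELANE with CBE, at a log2 ratio of 0.22 between the libraries labelled MOLM13 and -0.09 between those labelled OCI-AML4. Without the block, the called members numbered 5 with KO, 4 with CBE and 4 in the difference between the editors, against 7, 5 and 5 with it. Of all 24057 genes, 1736, 1641 and 503 were called without the block, against 2108, 2124 and 767 with it.

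**Figure D2:**
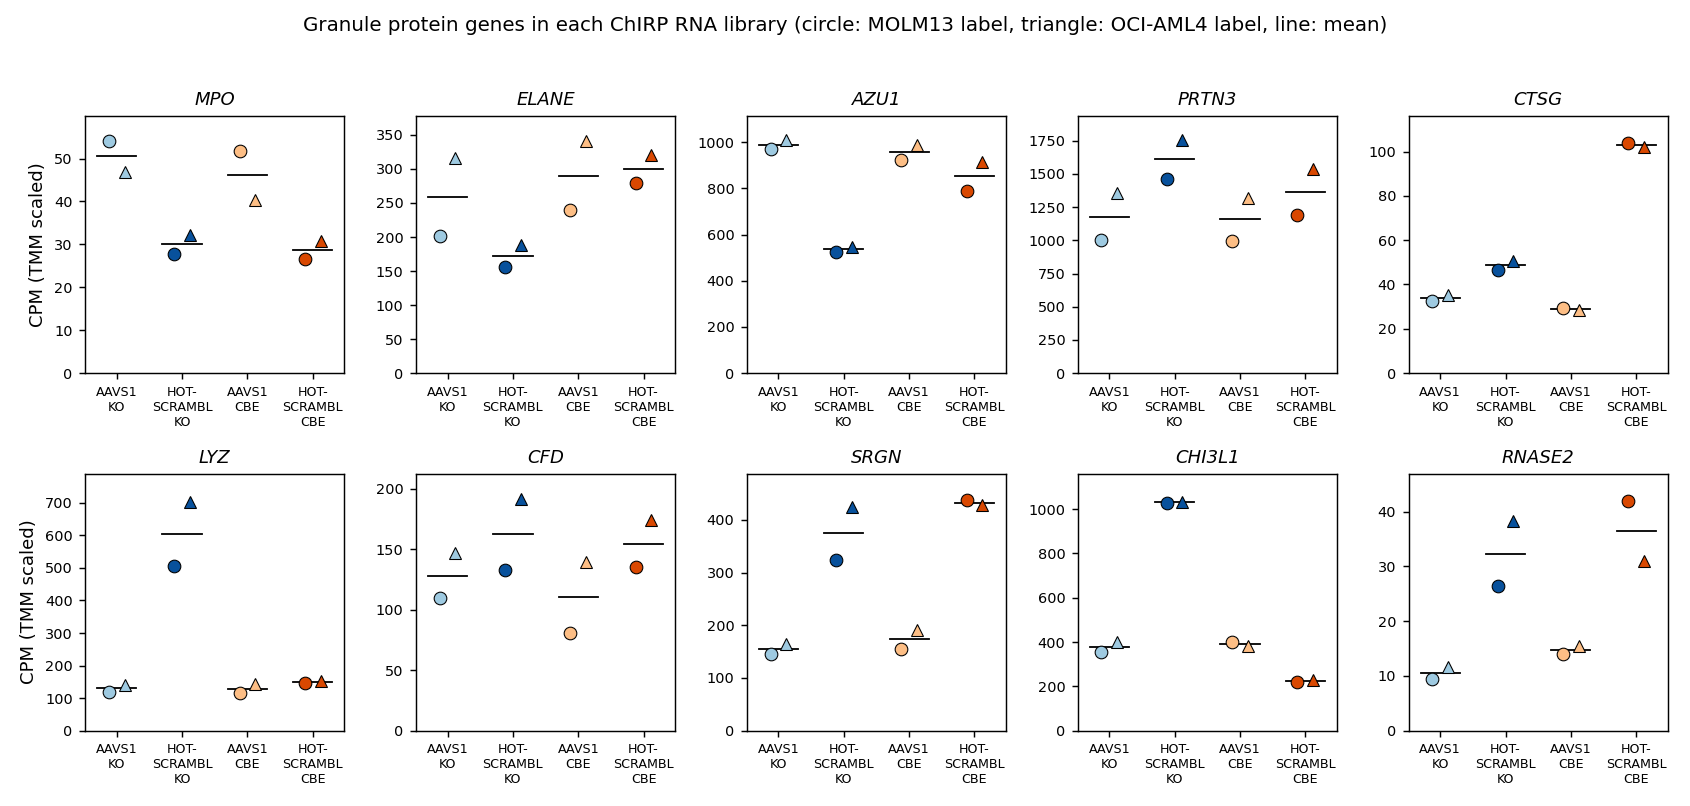
CPM (TMM scaled, linear axes from 0) of the 10 members in each of the 8 libraries; circles are libraries labelled MOLM13, triangles those labelled OCI-AML4, and lines the group means. CHI3L1 lay at 1028 and 1034 CPM in HOTSCRAMBL KO and at 220 and 230 CPM in HOTSCRAMBL CBE, against 353 to 402 CPM in the 4 AAVS1 libraries.

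Among the serine proteases, AZU1 fell with KO. Its protein binds heparin and is antimicrobial. It had 971 and 1007 CPM in AAVS1 KO and 525 and 547 CPM in HOTSCRAMBL KO, against 924 and 987 CPM in AAVS1 CBE and 788 and 915 CPM in HOTSCRAMBL CBE. Both HOTSCRAMBL KO libraries lay far below the other 6, and the HOTSCRAMBL CBE libraries lay below the AAVS1 CBE libraries by less. The log2 fold change was -0.89 with KO (SE 0.0892, adjusted p = 5.08e-08, edgeR) and -0.17 with CBE (SE 0.0859, adjusted p = 0.274). Leaving out each library in turn, the KO value stayed between -0.92 and -0.84 and past the threshold.

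ELANE, which cleaves elastin and bacterial proteins and is mutated in inherited neutropenias, had 201 and 316 CPM in AAVS1 KO and 156 and 189 CPM in HOTSCRAMBL KO. With CBE it had 239 and 341 CPM in the controls and 279 and 320 CPM in the edited cells. Its libraries labelled OCI-AML4 were higher in every group, the KO groups did not overlap, and the CBE groups did. ELANE fell with KO by 0.57 on the log2 scale (SE 0.130, adjusted p = 0.00451, edgeR), and with CBE its log2 fold change was 0.07 (SE 0.118, adjusted p = 0.803). The KO call was lost without the block (-0.58, adjusted p = 0.0523), without AAVS1 KO replicate 2 (-0.39, adjusted p = 0.297) and without HOTSCRAMBL KO replicate 2 (-0.49, adjusted p = 0.160).

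PRTN3, between AZU1 and ELANE, rose with KO while they fell. Its product cleaves matrix and granule proteins and is the main antigen of the antibodies in granulomatosis with polyangiitis. It had 1002 and 1356 CPM in AAVS1 KO and 1463 and 1756 CPM in HOTSCRAMBL KO, and 994 and 1320 CPM in AAVS1 CBE and 1191 and 1538 CPM in HOTSCRAMBL CBE. The KO groups did not overlap, the CBE groups did, and under each label the edited library was the higher one. PRTN3 rose by 0.46 on the log2 scale with KO (SE 0.0806, adjusted p = 2.58e-04, edgeR) and had 0.24 with CBE (SE 0.0799, adjusted p = 0.0601). Its KO call was lost without the block (0.45, adjusted p = 0.0606) and without AAVS1 KO replicate 1 (0.42, adjusted p = 0.0504).

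CTSG (cathepsin G, a protease of mixed trypsin-like and chymotrypsin-like specificity) had 32.7 and 35.4 CPM in AAVS1 KO and 46.6 and 50.7 CPM in HOTSCRAMBL KO. In AAVS1 CBE it had 29.4 and 28.6 CPM, and in HOTSCRAMBL CBE 104 and 102 CPM. Both HOTSCRAMBL groups lay above their controls without overlap, the CBE group by the wider margin. With CBE it rose by 1.83 on the log2 scale (SE 0.192, adjusted p = 1.43e-07, edgeR), and the value with KO, 0.52, did not pass (SE 0.230, adjusted p = 0.196). Leaving out any library kept the CBE value between 1.78 and 1.87 and past the threshold.

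CFD (complement factor D, the protease that starts the alternative pathway of complement) had 110 and 147 CPM in AAVS1 KO and 133 and 191 CPM in HOTSCRAMBL KO. It had 81.2 and 139 CPM in AAVS1 CBE and 135 and 174 CPM in HOTSCRAMBL CBE. Groups overlapped in both comparisons, and the library labelled OCI-AML4 was the higher one in every group. CFD rose with CBE by 0.52 on the log2 scale (SE 0.140, adjusted p = 0.0177, edgeR), and the value with KO was 0.34 (SE 0.146, adjusted p = 0.180). That CBE call was lost without the block (0.49, adjusted p = 0.192), without TMM scaling (0.38, adjusted p = 0.0989), in a fit of only the 4 CBE libraries (0.52, adjusted p = 0.135) and without any of 5 libraries. They were AAVS1 KO replicates 1 and 2 (0.52 each, adjusted p = 0.0511 and 0.0528), AAVS1 CBE replicate 1 (0.35, 0.421) and HOTSCRAMBL CBE replicates 1 and 2 (0.41, 0.356 and 0.62, 0.0667).

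MPO, the haem enzyme that makes hypochlorous acid from hydrogen peroxide and chloride, was the least abundant member per length and did not pass the test with either editor. It had 54.1 and 47.0 CPM in AAVS1 KO and 27.8 and 32.1 CPM in HOTSCRAMBL KO, and 51.8 and 40.5 CPM in AAVS1 CBE and 26.6 and 30.8 CPM in HOTSCRAMBL CBE. All 4 HOTSCRAMBL libraries lay below all 4 AAVS1 libraries. The log2 fold change was -0.74 with KO (SE 0.254, adjusted p = 0.0696, edgeR) and -0.71 with CBE (SE 0.233, adjusted p = 0.0581). With DESeq2 both passed (-0.73, adjusted p = 0.00511 and -0.69, adjusted p = 0.00934), and they also passed without TMM scaling (-0.90, adjusted p = 0.0178 and -0.85, adjusted p = 0.0173). Without TMM scaling the median log2 fold change of all genes was -0.17 with KO and -0.15 with CBE, and 33.1% and 32.6% of all calls were higher, against 51.5% and 51.6% with it. Of 20 alternative fits MPO passed in 3 with KO and in 4 with CBE. After the GC correction described below it had -0.56 in both comparisons (adjusted p = 0.201 and 0.156, edgeR). Leaving out each library in turn gave -0.94 to -0.58 with KO and -0.88 to -0.49 with CBE.

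Within 100 kb of the members 46 other genes were tested, of which 0 rose and 4 fell with KO, and 2 rose and 4 fell with CBE. Of all tested genes 8.76% were called with KO and 8.83% with CBE, and nothing particular to the neighbours is read from these counts. TSPOAP1, at chr17:58301228-58328795 on the same strand, encodes a binding protein of the mitochondrial translocator protein and lies upstream of MPO. It had 4047 and 3688 CPM in AAVS1 KO, 4599 and 4369 CPM in HOTSCRAMBL KO, 3862 and 3587 CPM in AAVS1 CBE, and 1374 and 1416 CPM in HOTSCRAMBL CBE. The HOTSCRAMBL CBE libraries stood far below the other 6. TSPOAP1 fell with CBE by 1.42 on the log2 scale (SE 0.0714, adjusted p = 2.58e-13, edgeR), a call kept whichever library was left out. MIR142HG, the host transcript of the blood-cell microRNA miR-142 (chr17:58330879-58332523), fell with KO (-1.21, adjusted p = 2.07e-07) and with CBE (-0.76, adjusted p = 7.02e-05), though neither call held without the block. PTBP1, next to the chromosome 19 cluster, fell by 0.43 with KO (adjusted p = 0.00853) and by 0.32 with CBE (adjusted p = 0.0428) on the log2 scale. Both PTBP1 calls were lost without the block, and without any of 4 libraries with KO and any of 8 with CBE. The other neighbours called were TSPOAP1-AS1 and ADORA1 (lower with KO), MYBPH (lower with CBE), and PLPPR3 and CHIT1 (higher with CBE), and each of these calls was lost without 1 or more of the libraries. CHIT1 and ADORA1 were near the floor, at means of 0.969 and 2.94 CPM over the 8 libraries. CHIT1 had 6.04 and 0.236 CPM in HOTSCRAMBL CBE, so its call rests on 1 library.

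LYZ (lysozyme, which cleaves bacterial cell walls) had the largest change of the members with KO. It had 120 and 141 CPM in AAVS1 KO and 506 and 702 CPM in HOTSCRAMBL KO, against 116 and 142 CPM in AAVS1 CBE and 148 and 152 CPM in HOTSCRAMBL CBE. The HOTSCRAMBL KO libraries stood apart from the other 6, while the CBE groups were separated by a few CPM. LYZ rose with KO by 2.20 on the log2 scale (SE 0.125, adjusted p = 9.41e-13, edgeR), 4.60-fold. With CBE the value was 0.23 (SE 0.129, adjusted p = 0.338). With any library left out the KO value was between 2.04 and 2.33.

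CHI3L1 (a chitin-binding protein without enzyme activity, also called YKL-40, secreted by neutrophils and macrophages) was called in opposite directions with the 2 editors. Its level was 353 and 402 CPM in AAVS1 KO and 1028 and 1034 CPM in HOTSCRAMBL KO, and it was 400 and 381 CPM in AAVS1 CBE and 220 and 230 CPM in HOTSCRAMBL CBE. Neither pair of groups overlapped, and the control groups overlapped each other. CHI3L1 rose with KO by 1.45 on the log2 scale (SE 0.0985, adjusted p = 3.19e-11, edgeR) and fell with CBE by 0.80 (SE 0.102, adjusted p = 3.91e-06). Both calls were kept whichever library was left out, at 1.37 to 1.56 with KO and -0.87 to -0.72 with CBE.

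SRGN (serglycin, the proteoglycan core on which granule proteases are packed) rose with both editors. It had 145 and 164 CPM in AAVS1 KO and 325 and 425 CPM in HOTSCRAMBL KO, and 154 and 192 CPM in AAVS1 CBE and 437 and 428 CPM in HOTSCRAMBL CBE. Each HOTSCRAMBL library lay above every AAVS1 library. The log2 fold change was 1.27 with KO (SE 0.124, adjusted p = 3.60e-08, edgeR) and 1.33 with CBE (SE 0.118, adjusted p = 8.85e-09), and both were kept whichever library was left out.

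RNASE2 (eosinophil-derived neurotoxin, an antiviral ribonuclease also made by monocytes) was a low-level member. It had 9.41 and 11.6 CPM in AAVS1 KO and 26.4 and 38.2 CPM in HOTSCRAMBL KO, and 14.0 and 15.5 CPM in AAVS1 CBE and 41.8 and 30.9 CPM in HOTSCRAMBL CBE. All HOTSCRAMBL libraries lay above all AAVS1 libraries. RNASE2 rose by 1.64 on the log2 scale with KO (SE 0.362, adjusted p = 0.00335, edgeR) and by 1.33 with CBE (SE 0.294, adjusted p = 0.00313). Each call was lost without any of 3 libraries. For KO these were AAVS1 KO replicate 1 (1.51, adjusted p = 0.136), AAVS1 KO replicate 2 (1.80, adjusted p = 0.0671) and HOTSCRAMBL KO replicate 2 (1.26, adjusted p = 0.158). For CBE they were AAVS1 CBE replicate 1 (1.27, adjusted p = 0.152), AAVS1 CBE replicate 2 (1.39, adjusted p = 0.0692) and HOTSCRAMBL CBE replicate 1 (0.89, adjusted p = 0.365). Its paralog RNASE3 had a mean of 3.70 CPM over the 8 libraries.

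**Figure D3:**
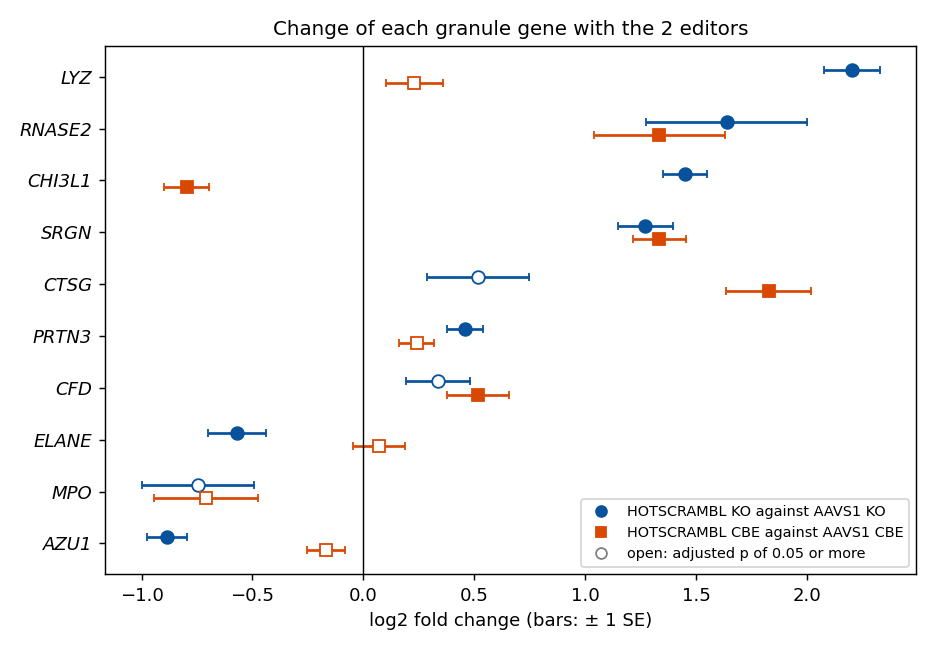
Log2 fold change of each member with KO (circles) and CBE (squares) against the matching AAVS1 control, with bars of 1 SE; open symbols did not pass the adjusted p threshold of 0.05. LYZ, CHI3L1 and CTSG have the most unequal pairs, and MPO and SRGN the most equal.

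The editors were compared directly through the difference of the 2 log2 fold changes, KO minus CBE. It passed for 5 of the 10 members, 2 higher and 3 lower, where 3.19% of all tested genes were called, 1.74% higher and 1.45% lower. In the 4 GC bins of genes of at least 20 CPM, 2.79% to 6.58% were called higher and 3.68% to 5.02% lower. CHI3L1 (2.25, SE 0.142, adjusted p = 5.56e-11, edgeR) and LYZ (1.97, SE 0.180, adjusted p = 8.25e-08) were higher with KO. AZU1 (-0.72, SE 0.124, adjusted p = 7.06e-04), CTSG (-1.31, SE 0.305, adjusted p = 0.0127) and ELANE (-0.64, SE 0.176, adjusted p = 0.0420) were lower with KO. The CHI3L1, LYZ and AZU1 differences passed whichever library was left out. ELANE (-0.79 to -0.45, adjusted p 0.0616 to 0.479) and CTSG (-1.38 to -1.24, adjusted p 0.0577 to 0.155) were lost without any 1 of the 8 libraries. ELANE was also lost without the block (-0.63, adjusted p = 0.258). The remaining differences did not pass: PRTN3 0.22 (SE 0.113), RNASE2 0.30 (SE 0.486), CFD -0.18 (SE 0.202), SRGN -0.06 (SE 0.171) and MPO -0.04 (SE 0.349). TSPOAP1 beside MPO had a difference of 1.63 (SE 0.0995, adjusted p = 3.22e-11).

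Ratios of members within a library, each member taken per length, do not depend on the scaling between libraries. The pairs below join members whose changes differed in these same counts, so the ratios describe those changes and are no separate evidence. A trend with GC content is not removed by them. With KO, AZU1 stood at 0.602 and 0.462 of PRTN3 in the controls and at 0.223 and 0.193 in the edited cells, and with CBE at 0.577 and 0.465 in the controls and at 0.411 and 0.369 in the edited cells. These genes lie 1 next to the other, and their ratio was lowest in the HOTSCRAMBL KO libraries. ELANE stood at 0.216 and 0.251 of PRTN3 in AAVS1 KO and at 0.115 and 0.116 in HOTSCRAMBL KO, and between 0.224 and 0.278 in the 4 CBE libraries. LYZ was 2.91 and 3.16 times CTSG in the KO controls and 8.62 and 10.99 times in HOTSCRAMBL KO, and it was 3.14 and 3.94 times CTSG in the CBE controls and 1.13 and 1.18 times in HOTSCRAMBL CBE. The HOTSCRAMBL groups thus lay on opposite sides of the controls. CHI3L1 was 0.717 to 1.15 times SRGN in the other 6 libraries and 0.182 and 0.194 times in HOTSCRAMBL CBE.

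Between the AAVS1 controls of the 2 editors, 0 of the 10 members and 0 of all tested genes (0%) were called by edgeR. Without adjustment 918 genes had p under 0.05, DESeq2 called 35 and limma-voom 1, none of them a member. The members' log2 differences, AAVS1 KO minus AAVS1 CBE, ran from -0.49 for RNASE2 to 0.24 for CFD. Between the line labels, 3 of the 10 members were called, all lower in the libraries labelled MOLM13, where 0.495% of all tested genes were called, 0.258% of them lower. The log2 difference, MOLM13 minus OCI-AML4, was -0.37 for PRTN3 (SE 0.0567, adjusted p = 5.63e-04, edgeR), -0.41 for ELANE (SE 0.0875, adjusted p = 0.0234) and -0.52 for CFD (SE 0.101, adjusted p = 0.0105). These 3 are adjacent on chromosome 19, and AZU1, on their other side, had -0.11 (adjusted p = 0.643). The ELANE and CFD calls were lost without any 1 of the 8 libraries (adjusted p 0.0539 to 0.594 and 0.0609 to 0.329). That of PRTN3 was lost without AAVS1 KO replicate 1 (adjusted p = 0.0761) or replicate 2 (adjusted p = 0.0814).

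Of 80 related genes set out in 7 lists, 59 were tested. GFI1, SERPINB1 and SLPI each stand in 2 of the lists and are counted in both. Of all tested genes 8.76% were called with KO, 8.83% with CBE and 3.19% in the difference between the editors. Genes of at least 20 CPM were called more often, and nothing particular to a list is read from the list counts below. Of the 13 other primary granule genes 9 were tested, and 2 rose and 0 fell with KO, 3 rose and 0 fell with CBE (median log2 fold change 0.17 and 0.68). The lysosomal protease gene CTSD rose with KO (1.78, adjusted p = 8.91e-06, edgeR). CD63, a granule membrane tetraspanin, rose with KO (1.38, adjusted p = 3.70e-04), a call lost without AAVS1 KO replicate 2 or HOTSCRAMBL KO replicate 1, and with CBE (1.07, adjusted p = 0.00344), a call lost without any of 3 libraries. PRSS57, which encodes a serine protease of azurophil granules and lies on chromosome 19 as well, had 161 and 217 CPM in AAVS1 KO, 189 and 192 CPM in HOTSCRAMBL KO, 152 and 205 CPM in AAVS1 CBE and 317 and 326 CPM in HOTSCRAMBL CBE. PRSS57 rose with CBE (0.87, adjusted p = 2.26e-05). Its KO minus CBE difference passed too (-0.85, adjusted p = 0.00736), but was lost without any of 5 libraries. The defensin genes DEFA1, DEFA1B, DEFA3 and DEFA4 had no counts in any library.

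Of 18 genes of the secondary and tertiary granules only 8 were tested, and 2 rose with KO and 0 were called with CBE (medians -0.19 and 0.25). LTF, LCN2, CAMP, MMP8, OLFM4 and CRISP3, which define these granules, had no counts in any library. CYBB, the catalytic subunit of the phagocyte NADPH oxidase, rose with KO (1.80, adjusted p = 4.36e-05, edgeR) from 20.2 and 18.5 CPM to 68.7 and 66.0 CPM. HP was called higher with KO at a mean of 2.54 CPM, a call lost without any of 3 libraries. Among 9 granule genes of eosinophils, basophils and mast cells, 6 were tested and 0 were called in any of the 3 editing comparisons, while PRG3, CLC and CPA3 had no counts.

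Of 15 genes listed for the processing, sorting or packing of granule proteins, 0 rose and 2 fell with KO (UNC13D and GFI1). With CBE 3 rose and 2 fell, and the medians were -0.05 with KO and -0.03 with CBE. GFI1 encodes a transcriptional repressor and is counted again among the transcription factors below. CANX, an endoplasmic reticulum chaperone that binds the MPO precursor, rose with CBE (0.90, adjusted p = 1.05e-06, edgeR). CTSC, the protease that activates ELANE, CTSG and PRTN3, rose with CBE (0.74, adjusted p = 0.00133), a call lost without any of 3 libraries. UNC13D, needed for granule release, fell with both editors (-0.52, adjusted p = 0.0241 and -0.70, adjusted p = 0.00140), calls lost without any of 4 and of 2 libraries. The fold changes of LYST (-0.36) and CALR (0.34), also called with CBE, were smaller, and these calls were lost without AAVS1 CBE replicate 2 and without any of 6 libraries. Of 10 inhibitors of granule proteases 5 were tested, and 2 rose with KO and 3 with CBE (medians 0.85 and 1.00). CST3, cystatin C, which inhibits cysteine proteases, rose with both (1.83, adjusted p = 5.08e-08 and 1.00, adjusted p = 6.55e-04). CST7, which restrains CTSC, rose with CBE (1.45, adjusted p = 6.11e-04), a call lost without AAVS1 CBE replicate 1. SERPINB6, an inhibitor of CTSG, rose with KO (0.85, adjusted p = 0.00437) and SERPINB1, which inhibits ELANE, PRTN3 and CTSG, with CBE (0.68, adjusted p = 0.0225), and these calls were lost without any of 3 and of 5 libraries.

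All 10 transcription factors of the list were tested: 4 rose and 3 fell with KO, and 1 rose with CBE (medians 0.27 and -0.04). CEBPA rose with KO (1.00, adjusted p = 4.62e-06, edgeR) and with CBE (0.61, adjusted p = 0.00212), the second call being lost without any of 3 libraries. CEBPB rose with KO (1.60, adjusted p = 2.16e-06), as did IRF8, a factor of the monocyte lineage (0.62, adjusted p = 4.66e-05). CEBPD rose with KO as well (0.89, adjusted p = 1.88e-04), though not without AAVS1 KO replicate 1. GFI1, a repressor needed for neutrophil differentiation, fell with KO (-0.69, adjusted p = 1.44e-04), from 319 and 359 CPM to 214 and 207 CPM. RUNX1 (-0.60, adjusted p = 2.08e-04) and MYB (-0.28, adjusted p = 0.0409) fell with KO too, and their calls were lost without AAVS1 KO replicate 1 and without any of 6 libraries. SPI1 was not called, at 247 to 286 CPM in all 8 libraries, and CEBPE, the factor of the later granules, had at most 1.72 CPM. Of 8 haem synthesis genes, which supply the MPO cofactor, 2 rose with KO, and 1 rose and 1 fell with CBE (medians -0.14 and -0.01). FECH, which inserts the iron, rose with both (2.26, adjusted p = 3.23e-06 and 1.83, adjusted p = 4.94e-05). ALAS1 rose with KO (0.62, adjusted p = 0.00383) and ALAD fell with CBE (-0.65, adjusted p = 0.0427), and these calls were lost without any of 3 and of 8 libraries.

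In the difference between the editors, KO minus CBE, 4 transcription factors were higher and 1 lower. CEBPB (1.46, adjusted p = 0.00320, edgeR), CEBPD (1.25, adjusted p = 7.42e-04), IRF8 (0.64, adjusted p = 0.00500) and KLF4 (1.74, adjusted p = 0.0298) were higher with KO, and GFI1 (-0.57, adjusted p = 0.0440) was lower. In the other lists CYBB (2.31, adjusted p = 0.00140), LYST (0.51, adjusted p = 0.00433) and ALAS1 (0.71, adjusted p = 0.0482) were higher and CANX (-0.59, adjusted p = 0.0314) lower, and no inhibitor was called. Every one of these 9 differences was lost without at least 2 of the libraries. Without the block, the differences of LYST, CANX, GFI1 and ALAS1, the KO calls of UNC13D and MYB and the CBE calls of LYST, CALR and ALAD were lost.

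GC content, the share of G and C in the annotated transcripts, differs widely among the members, and the fold changes of all genes moved with it. It is 38.1% in SRGN, 41.4% in LYZ, 46.2% in RNASE2, 55.1% in CHI3L1, 57.2% in CTSG, 58.5% in MPO, 65.5% in AZU1, 66.2% in PRTN3, 66.9% in ELANE and 68.6% in CFD. Over 7173 genes of at least 20 CPM, the median log2 fold change fell from 0.02 in the lowest of 4 equal bins of GC content to -0.24 in the highest with KO, and from 0.15 to -0.25 with CBE. After a correction for GC content, with the block kept, 7 members were called with KO and 7 with CBE. Of the 22546 genes in that fit, 1902 were called with KO and 1873 with CBE. The main fit called 2108 and 2124 of 24057. ELANE lost its KO call (-0.31, adjusted p = 0.166) and CFD gained one (0.60, adjusted p = 0.0104). With CBE, ELANE (0.43, adjusted p = 0.0228) and PRTN3 (0.59, adjusted p = 6.13e-06) gained calls, and AZU1 had 0.16 (adjusted p = 0.280) in place of -0.17. The KO fold changes of LYZ (2.16), CHI3L1 (1.56) and AZU1 (-0.63) and the CBE fold changes of CTSG (1.93) and CHI3L1 (-0.75) stayed past the threshold. So did PRTN3 with KO, which moved from 0.46 to 0.71, and CFD with CBE, which moved from 0.52 to 0.91.

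**Figure D4:**
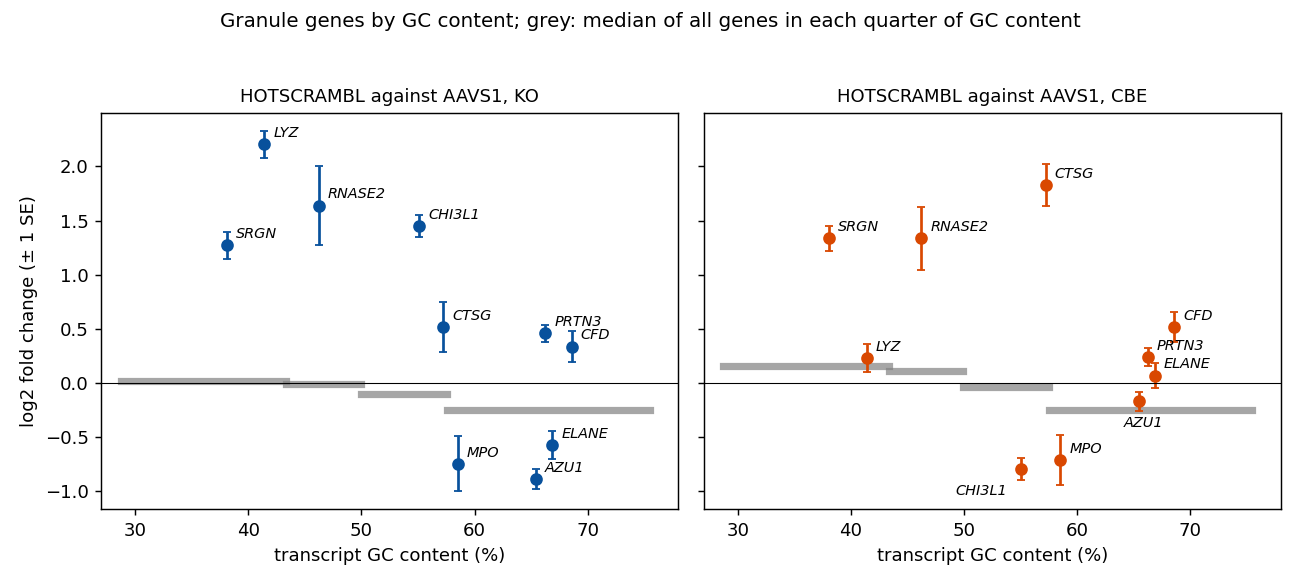
Log2 fold change of each member (bars of 1 SE) against the GC content of its transcripts (%), with KO on the left and CBE on the right; grey bars are medians of all genes of at least 20 CPM in 4 equal bins of GC content. The medians of all genes fall toward high GC content, from 0.02 to -0.24 with KO and from 0.15 to -0.25 with CBE.

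The gene whose pattern over the 8 libraries lay nearest to each member, among 7245 other genes of at least 20 CPM, was found by the root mean square difference of centred log2 CPM, as a description. For LYZ it was GRN, the progranulin gene (0.164), with 188 ± 8.57 CPM in AAVS1 KO and 746 ± 148 CPM in HOTSCRAMBL KO, and with CBE 188 ± 21.7 CPM in the controls and 247 ± 38.1 CPM in the edited cells (SD, n = 2 each). For CTSG it was B2M, the light chain of MHC class I (0.114), with 38.6 ± 2.96 CPM in AAVS1 KO and 53.4 ± 8.90 CPM in HOTSCRAMBL KO, and with CBE 36.0 ± 4.08 CPM in the controls and 125 ± 2.43 CPM in the edited cells. SRGN lay nearest to another class I gene, HLA-B (0.0966), and CHI3L1 to MT-ND5, a mitochondrially encoded subunit of respiratory complex I (0.144). MT-ND5 had 8678 ± 245 CPM in AAVS1 KO and 27765 ± 409 CPM in HOTSCRAMBL KO, and with CBE 8675 ± 111.6 CPM in the controls and 6071 ± 83.5 CPM in the edited cells, so it rose and fell on the same sides as CHI3L1. The others were SSH3 for MPO (0.0676), UBE2J2 for ELANE (0.0875), ANTXR2 for AZU1 (0.0837), SEC61A1 for PRTN3 (0.0748), CRBN for CFD (0.139) and RPS21 for RNASE2 (0.149). No member was the nearest gene of another: between 1 gene (for RNASE2) and 1242 genes (for MPO) lay closer than the nearest fellow member. Fellow members are few beside 7245 other genes, so little can be read from this. Some were close: only 1 gene lay closer to RNASE2 than SRGN did, 5 closer to CFD than PRTN3, and 16 closer to SRGN than RNASE2. For LYZ the number was 88 and for AZU1 705.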

How the data were processed

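The authors deposited 1 table of read counts per gene for the 8 libraries, made with featureCounts 2.0.6 on the Ensembl 112 annotation of GRCh38, in paired-end mode without strand, per the file headers and the submitters' processing notes; the aligner's version and settings are not given in the sources used here. Of the counts between 1 and 20, 71.8% to 74.9% were even numbers, as when both reads of a pair are counted; halving the counts changed no call of a member. Symbols were matched for 62541 of 63140 genes (99.05%), and 2 records broken over lines were rejoined.

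From these counts edgeR 4.0.16 (R 4.3.3) fitted all 8 libraries together with group and line label (filterByExpr with a minimum count of 10, TMM, glmQLFit with robust priors and the current, not legacy, quasi-likelihood, 3 residual degrees of freedom), with Benjamini-Hochberg adjustment over 24057 genes. CPM are TMM scaled, and levels between genes are CPM per kb of annotated exon. Libraries were paired by the cell line in their titles; deviations of same-label libraries correlated by 0.00851 to 0.0245 over the tested genes and 0.0411 to 0.117 over the genes above the median level. Chi-square per degree of freedom between the libraries of a group was 35.7 to 42.8, so none was a copy of another. Leaving out a library leaves a group with 1 library, assumed to vary like the others. Alternatives used DESeq2 1.42.0 and limma 3.58.1 (voom). On simulated data for the KO effect over 24057 genes, 46.5% of 200 genes changed 2-fold were recovered, with 0% false calls. The 200 were drawn only from genes of at least 20 CPM. Counts were simulated with each gene's spread as fitted here, without a line effect or GC trend. The 0% therefore cannot tell how many calls in the real libraries are false. The depth sets the counting error of low members such as RNASE2.

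The members and the lists were chosen with earlier results of these data known. The genes named are the members, the called genes of each list and of the 100 kb around each member, and the gene of nearest pattern; others (genes at 0, SPI1, CEBPE, RNASE3) were named after their values were seen. GC content is the median over GENCODE transcripts, known for 93.7% of the tested genes.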

Additional observations from a re-analysis of the deposited data

Results flagged for a closer look

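The effects of the editors differed, by the test of the difference itself (KO minus CBE, edgeR quasi-likelihood, adjusted over all genes), for 5 members. For CHI3L1 the difference of log2 fold changes was 2.25, with 1.45 for KO and -0.80 for CBE. For LYZ it was 1.97 (2.20 and 0.23), and for AZU1 it was -0.72 (-0.89 and -0.17). For CTSG it was -1.31 (0.52 and 1.83), and for ELANE it was -0.64 (-0.57 and 0.07). The CTSG and ELANE differences passed only with all 8 libraries in the fit.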

How the results depend on the processing

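The number of members called was 7 with KO, 5 with CBE, 5 for the difference between the editors, 0 between the controls and 3 between the line labels. With each library left out in turn, no comparison had more called members than with all 8. Fewer of all genes were called too, in each comparison except that of the controls. Nothing particular to the members is read from this drop. Fitted on only the 4 libraries compared, 5 were called with KO and 3 with CBE; lost were ELANE (adjusted p = 0.0902) and RNASE2 (adjusted p = 0.0506) with KO, and CFD (adjusted p = 0.135) and RNASE2 (adjusted p = 0.0651) with CBE. With the correction for GC content, added after seeing the data, 1 was called between the line labels. Without the replicate block the counts were 5 with KO, 4 with CBE and 4 for the difference; ELANE (-0.58, adjusted p = 0.0523) and PRTN3 (0.45, adjusted p = 0.0606) with KO, CFD with CBE (0.49, adjusted p = 0.192) and the ELANE difference (-0.63, adjusted p = 0.258) lost their calls, and it changed no other call of a member. The causes were not tested, except that leave-one-out fits and fits on 4 libraries have fewer samples. Over all genes, the main counts of 2108 (KO), 2124 (CBE), 767 (difference) and 119 (line labels) became 780 (KO) and 677 (CBE) on 4 libraries. They became 4231, 3439, 2291 and 778 with DESeq2, and 250 line-label calls came from limma-voom and 193 from the legacy quasi-likelihood. The block's removal gave 1736 (KO), 1641 (CBE) and 503 (difference). With GC correction 60.8% of KO calls were higher, and with 4 libraries 62.9%, against 51.5%.

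The ELANE difference also missed the threshold with DESeq2's size factors (adjusted p = 0.0640) and upper quartile scaling (adjusted p = 0.0513), and without TMM, AZU1 with CBE passed (-0.31, adjusted p = 0.0238) and CFD with CBE did not (0.38, adjusted p = 0.0989). Values that changed sign were all of results that did not pass the test. With CBE, ELANE (0.07) was -0.070 without TMM and between -0.083 and 0.21 with a library left out, and AZU1 (-0.17) was 0.16 with GC correction. The difference between editors ran, with a library left out, from -0.25 to 0.14 for MPO, from -0.23 to 0.10 for SRGN (0.091 with GC correction) and from -0.068 to 0.73 for RNASE2. Between the controls it ran from -0.057 to 0.34 for MPO, from -0.025 to 0.067 for PRTN3 (-0.0099 with GC correction), from -0.011 to 0.038 for LYZ and from -0.15 to 0.040 for CHI3L1. Between the line labels it ran from -0.040 to 0.17 for MPO and from -0.35 to 0.15 for RNASE2. Of 51 calls of related and neighbouring genes, 16 were kept whichever library was left out and 35 were not.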
